A study of Mus musculus with 40 samples.

Results

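Livers of mice with a liver-specific deletion of PPARγ (KO) were compared between mice fed a high-fat diet with pioglitazone (KO HFD-Pio) and mice fed a low-fat diet with pioglitazone (KO Pio). The comparison asked which messenger RNAs the high-fat diet changed when the drug was in the food and its receptor was absent from hepatocytes. It held 9 of the 40 mice of the series: the 5 KO HFD-Pio mice, numbered 16 to 20, and 4 of the 5 KO Pio mice, numbered 11, 12, 14 and 15. KO Pio mouse 13 was left out because its library lay far from the other 19 KO libraries.

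The series held 8 groups of 5 male mice, WT or KO, on low-fat (control) or high-fat diet (HFD), each with or without pioglitazone (Pio), and RNA of whole liver was sequenced. KO mice carried loxP sites in Pparg and an Alb-Cre transgene, whose albumin promoter drives Cre in hepatocytes, so Kupffer, endothelial and stellate cells keep the gene. WT mice were C57BL6/J rather than Cre-negative littermates, and the labels give that strain for both genotypes. All mice were fed from 2 months of age for 3 months and were 5 months old at collection, with Pio at 0.01% of the diet and fat at 60% of calories in the HFD. Both groups compared carried the deletion and received the drug, so diet was the labelled difference between them. The labels name mice and not litters or cages. P-values measure the spread between mice, which the main test estimated over the 19 KO mice of 4 groups, not over the 9 alone.

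PPARγ is a nuclear receptor that turns on genes of fat uptake and storage, and pioglitazone, a thiazolidinedione used in type 2 diabetes, is its agonist. Hepatocytes make fatty acids from carbohydrate with enzymes under the transcription factors SREBP-1c and ChREBP, and they make cholesterol with enzymes under SREBP-2, which is activated when membrane sterol is low. The oxysterol receptor LXR raises genes of sterol export and also SREBP-1c. In whole liver, fewer cells of a type and less RNA per cell cannot be told apart.

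The 9 libraries held 23262767 to 28334251 counts each. Mouse 13 had a score of 182.8 on the first principal component of the 20 KO libraries, which held 59.08% of the variance, while the other 19 lay between -13.49 and -1.15. Its median Spearman correlation with the other KO libraries was 0.756, against 0.956 to 0.990 among those 19. With mouse 13 kept, the common dispersion of the counts was 0.103 in place of 0.0359. The defining hepatocyte markers were high in all 9 livers, with summed levels of 84848 to 126570 CPM (counts scaled to the TMM-adjusted library size), in place of 34139 in mouse 13.

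**Figure D1:**
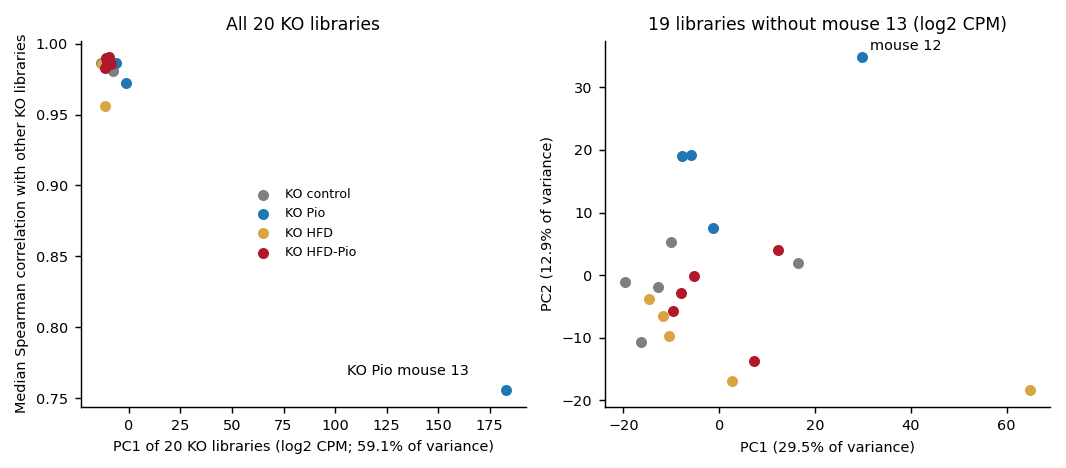
Left, all KO libraries by score on the first principal component of log2 CPM and by median Spearman correlation with the others. Right, the 19 libraries without mouse 13 on the first and second components. Colours show groups, and KO Pio mice 13 and 12 are labelled. KO Pio mouse 13 stands apart from the other 19 KO libraries, which lie between -13.49 and -1.15 on the component where it scores 182.8.

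On the HFD, livers of KO mice under Pio had less mRNA for the leptin receptor, the sterol exporter Abcg5, the lipid hydrolase Pnpla5, the mitochondrial membrane protein Samm50 and the NADPH-forming enzyme G6pdx. They had more mRNA for the carboxylesterase Ces1b and the secreted growth factor subunit Inhbc. Apart from Samm50 and Ces1b, each of these genes was called in only 1 to 3 of the 9 fits that left out a mouse. Of 12418 genes tested, 18 (0.145%) were called, meaning that edgeR's quasi-likelihood test gave a p of no more than 0.05 after Benjamini-Hochberg adjustment: 6 were higher (0.0483%) and 12 lower (0.0966%) in KO HFD-Pio. An unadjusted p under 0.05 was found for 1174 genes (9.45%), with 564 higher (4.54%) and 610 lower genes (4.91%). The 2 groups did not overlap in any of the 18 called genes, nor in 525 genes (4.23%) of all those tested.

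The number of calls rested on single libraries. It was 11, 2, 22, 4 and 3 without KO HFD-Pio mouse 16, 17, 18, 19 and 20, and 1, 12, 36 and 2 without KO Pio mouse 11, 12, 14 and 15. With mouse 13 kept, 0 genes were called by edgeR, although 2386 had an unadjusted p under 0.05, and 17 of the 18 kept their direction. The exception was Fam19a5, with a log2 fold change of -0.031 in place of 1.37. All 18 kept their direction in the other 15 alternatives, but not their calls. With only the 9 compared mice fitted, 23 genes were called, of which 9 were among the 18. With 39 mice of both genotypes in 1 fit, 12 were called, of which 7 were among the 18. DESeq2 and limma with sample weights called all 18, among 139 and 99 genes. Ces1b was called in each of the 9 fits that left out a mouse, Samm50 in 8 and Gstm4 in 6, and the other 15 genes in 1 to 4. By its own values, mouse 13 lay on the side of the other KO Pio mice in 9 of the 18 genes, beyond the KO HFD-Pio range in 6 and inside that range in 3, which were Lepr, Abcg5 and G6pdx.

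**Figure D2:**
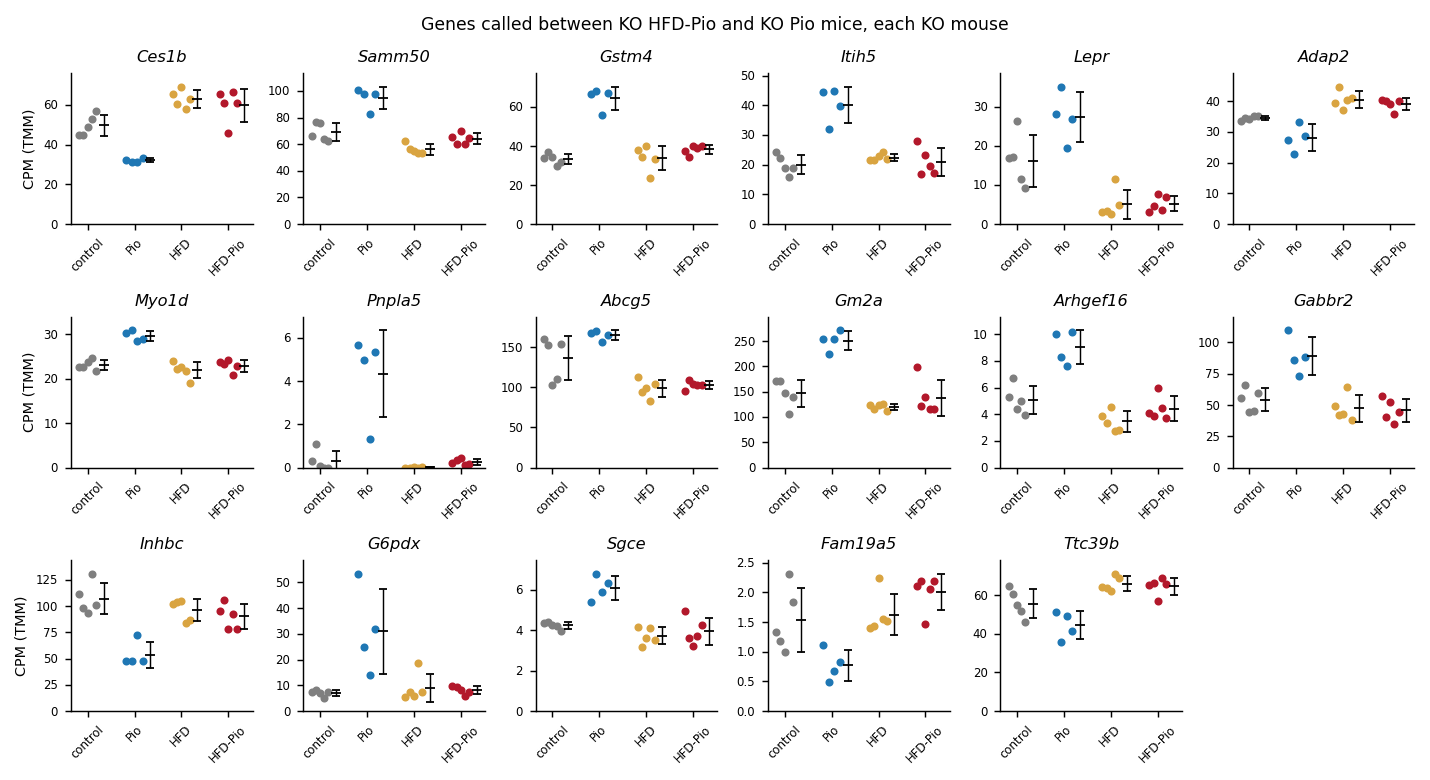
CPM of 17 of the 18 called genes in each KO mouse of the control, Pio, HFD and HFD-Pio groups, without mouse 13; points are mice, and bars are the mean ± SD, drawn no lower than 0. In all 17 panels the KO Pio and KO HFD-Pio mice do not overlap, and the KO Pio mean is the highest or the lowest of the 4 group means. The calling of these genes through the KO Pio values favours both.

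Lepr, the receptor for the adipocyte hormone leptin, fell most among the called genes whose mean reached 5 CPM. Its levels in KO Pio mice were 28.0, 35.0, 19.4 and 26.8 CPM, and in KO HFD-Pio mice 3.19, 4.51, 7.60, 3.71 and 6.81 CPM. Every KO HFD-Pio mouse was far below the lowest KO Pio mouse. The means were 27.3 ± 6.38 CPM (SD, n = 4) and 5.16 ± 1.94 CPM (SD, n = 5), a 5.30-fold lower level with a log2 fold change of -2.40 ± 0.40 (SE) and an adjusted p of 0.0193 by edgeR. Without Pio, KO mice averaged 16.2 ± 6.61 CPM on control diet and 5.11 ± 3.71 CPM on HFD, so both HFD groups lay at a like level. Mouse 13 had 5.83 CPM, within the KO HFD-Pio range, and with it the log2 fold change was -2.16 with an adjusted p of 0.157. The gene lies on chromosome 4 (GRCm38, 101717404 to 101815352, plus strand), and the counts are totals over its exons that do not separate the long signalling form from the short and soluble ones.

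Abcg5 and Abcg8 are partner transporters that move sterols out of hepatocytes into bile. Abcg5 measured 167, 170.4, 156 and 165 CPM in KO Pio mice and 94.9, 109, 105, 103 and 103 CPM in KO HFD-Pio mice. All KO HFD-Pio mice were lower, and the gap between the groups was larger than the spread within either. The mean fell from 165 ± 5.97 to 103 ± 5.00 CPM, with a log2 fold change of -0.68 ± 0.12 and an adjusted p of 0.0193. Abcg8, looked up after these values were seen, was at 270.5, 251, 203 and 229 CPM against 154, 174, 161, 173 and 155 CPM, also without overlap, but its log2 fold change of -0.55 ± 0.15 was not called (adjusted p = 0.195). The 2 genes lie head to head on chromosome 17 with overlapping exons on opposite strands (Abcg5 84658234 to 84683011, minus; Abcg8 84676302 to 84700333, plus), and the strand setting of the counting is not given in the sources used here. Mouse 13 had 95.7 CPM of Abcg5, within the KO HFD-Pio range.

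G6pdx encodes glucose-6-phosphate dehydrogenase, the first enzyme of the pentose phosphate pathway and a source of NADPH for fatty acid synthesis. KO Pio mice had 53.2, 25.0, 14.1 and 31.8 CPM, a wide spread within the group. KO HFD-Pio mice were all lower, at 9.75, 9.26, 8.35, 5.95 and 7.29 CPM. The log2 fold change was -1.93 ± 0.35, a 3.82-fold lower level (adjusted p = 0.0321). KO mice without Pio had 6.96 ± 1.11 CPM on control diet. On HFD, mouse 9 was at 18.6 CPM, above KO Pio mouse 14, and the other 4 KO HFD mice lay between 5.42 and 7.37 CPM. Its exons on the X chromosome overlap those of Ikbkg, and mouse 13 had 7.27 CPM.

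3 neighbouring genes of chromosome 15 shared the direction of change. Pnpla5 (84112356 to 84123175, minus strand) and Pnpla3 (84167837 to 84187236, plus) encode patatin-like lipid hydrolases, of which Pnpla3 sits on lipid droplets and follows SREBP-1c. Samm50 (84192241 to 84217267, plus) encodes the core of the machinery that inserts barrel proteins into the outer mitochondrial membrane. Samm50 was 101, 98.0, 82.5 and 97.5 CPM in KO Pio mice and 65.6, 60.5, 69.9, 60.2 and 65.0 CPM in KO HFD-Pio mice, with little spread in either group. Its means were 94.7 ± 8.31 and 64.2 ± 4.02 CPM, with a log2 fold change of -0.56 ± 0.08 and an adjusted p of 0.00642. The exons of Samm50 and Pnpla3 overlap those of the annotated gene Gm49513.

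Pnpla5 was near 0 in the KO HFD-Pio livers. It measured 5.66, 4.99, 1.34 and 5.33 CPM in KO Pio mice, of which mouse 14 was lowest, and 0.215, 0.372, 0.462, 0.118 and 0.149 CPM in KO HFD-Pio mice. The log2 fold change was -4.04 ± 0.69 (adjusted p = 0.0193). It was called with a mean under 5 CPM, as were Fam19a5 and Sgce, and these 3 were therefore chosen for naming after their values were seen. Pnpla3 measured 41.7, 64.5, 11.8 and 29.7 CPM against 4.84, 1.78, 5.79, 2.17 and 1.30 CPM, again with mouse 14 lowest of its group and no overlap. Its log2 fold change of -3.54 ± 0.70 just missed the threshold (adjusted p = 0.0571). It was past the threshold without mouse 14, by DESeq2, by limma with sample weights and with 39 mice in 1 fit.

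The promoters of the 3 neighbours are shown because these genes had 1 direction within a short stretch of chromosome. They are RefSeq windows from 250 bases before to 50 bases after the start of transcription on GRCm38.p6, read 5′ to 3′ on the gene's strand: chr15:84123126-84123425 (minus), chr15:84167566-84167865 (plus) and chr15:84191990-84192289 (plus). Capitals mark the letters CCAAT, the box bound by NF-Y, on either strand, and in Pnpla5 also CACGTG, an E-box.
Pnpla5: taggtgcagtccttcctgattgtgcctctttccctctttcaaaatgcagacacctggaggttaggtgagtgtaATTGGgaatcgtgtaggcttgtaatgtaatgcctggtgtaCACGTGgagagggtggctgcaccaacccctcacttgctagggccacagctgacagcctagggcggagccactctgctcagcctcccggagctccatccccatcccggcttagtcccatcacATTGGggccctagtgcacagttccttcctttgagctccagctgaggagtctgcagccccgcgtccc
Pnpla3: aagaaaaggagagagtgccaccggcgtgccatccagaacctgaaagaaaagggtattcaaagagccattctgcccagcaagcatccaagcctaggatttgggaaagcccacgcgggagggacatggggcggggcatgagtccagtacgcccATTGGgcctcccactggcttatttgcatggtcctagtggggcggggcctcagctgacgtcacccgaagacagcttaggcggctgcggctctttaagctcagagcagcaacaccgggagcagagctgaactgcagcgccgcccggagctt
Samm50: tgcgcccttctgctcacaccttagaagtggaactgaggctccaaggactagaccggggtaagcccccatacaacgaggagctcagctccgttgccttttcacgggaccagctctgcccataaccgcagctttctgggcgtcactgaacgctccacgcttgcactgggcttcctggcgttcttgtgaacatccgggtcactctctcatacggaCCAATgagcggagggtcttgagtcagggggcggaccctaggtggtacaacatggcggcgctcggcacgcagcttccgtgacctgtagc
CCAAT occurred 2 times in the Pnpla5 window and 1 time in each of the other 2, and CACGTG 1 time in that of Pnpla5. Of all 32851 promoter windows, 37.4% held CCAAT and 7.15% CACGTG. Among the called genes, 14 of 18 had a window, and 8 of their 17 windows (47.1%) held CCAAT and 2 (11.8%) CACGTG.

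Gm2a and Gstm4 also fell. Gm2a, the activator protein of lysosomal ganglioside breakdown, was at 254, 225, 255 and 271 CPM in KO Pio mice and at 198, 121, 139, 116 and 115 CPM in KO HFD-Pio mice. Mouse 16 was the highest of the HFD-Pio mice, at a distance from the other 4 and below all KO Pio mice, and the log2 fold change was -0.86 ± 0.15 (adjusted p = 0.0193). Gstm4, a glutathione transferase, was at 66.9, 68.0, 55.8 and 67.3 CPM against 37.6, 34.2, 40.1, 39.2 and 40.1 CPM. The change of -0.75 ± 0.11 had an adjusted p of 0.00951. Its relatives Gstm1 and Gstm3 had log2 fold changes of -0.75 and -1.71 (adjusted p = 0.145 and 0.128). The counts hold uniquely aligned reads, so reads that match several of these near-identical genes are missing from them.

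The remaining called genes that fell changed by a log2 of -1.03 to -0.37. Itih5, of the inter-alpha-trypsin inhibitor family that binds hyaluronan, had 44.4, 31.9, 44.8 and 39.7 CPM against 28.1, 16.8, 23.4, 19.6 and 17.2 CPM (log2 fold change -0.93 ± 0.14). Gabbr2, a subunit of the GABA-B receptor, went from 89.3 ± 15.2 to 45.8 ± 9.04 CPM, and Arhgef16, a guanine nucleotide exchange factor, from 9.03 ± 1.26 to 4.42 ± 0.931 CPM. Myo1d, an unconventional myosin, showed the smallest change, -0.37 ± 0.06, from 29.7 ± 1.11 to 22.9 ± 1.34 CPM. Sgce, the imprinted epsilon-sarcoglycan gene, went from 6.09 ± 0.585 to 3.94 ± 0.666 CPM. None of the groups overlapped in these 5 genes, and their adjusted p ranged from 0.0132 for Itih5 to 0.0386 for Sgce.

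Among the 6 genes that rose, Ces1b, a carboxylesterase of the endoplasmic reticulum that hydrolyses esters, had the smallest p. It measured 32.3, 31.1, 31.3 and 33.3 CPM in KO Pio mice and 65.2, 61.0, 45.6, 66.4 and 60.8 CPM in KO HFD-Pio mice. The KO Pio values lay close together, and mouse 18 was the lowest of the HFD-Pio group. The mean went from 32.0 ± 1.01 to 59.8 ± 8.31 CPM, a 1.87-fold rise with a log2 fold change of 0.90 ± 0.10 and an adjusted p of 0.000318. An exact permutation test over the 9 mice gave p = 0.0159, the smallest these group sizes allow. The call was lost when mouse 13 was kept (adjusted p = 0.124), with a log2 fold change of 1.09. Ces1b belongs to a cluster of similar Ces1 genes on chromosome 8, and reads that match more than 1 of them were not counted.

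Inhbc, which encodes the activin C subunit of the TGF-β family and is made mainly by hepatocytes, was at 47.3, 47.5, 72.5 and 47.4 CPM in KO Pio mice. In KO HFD-Pio mice it was at 95.7, 106, 78.0, 92.4 and 78.6 CPM. Mouse 14 was the highest KO Pio mouse and lay just below the lowest KO HFD-Pio mouse. Its log2 fold change was 0.75 ± 0.14 (adjusted p = 0.0319). KO mice without Pio had 107 ± 14.7 CPM on control diet and 96.2 ± 10.1 CPM on HFD, close to KO HFD-Pio.

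Ttc39b, a protein linked to the breakdown of LXR, rose from 44.5 ± 7.23 to 64.7 ± 4.40 CPM. Adap2, a GTPase-activating protein for Arf6, rose from 28.1 ± 4.43 to 39.1 ± 1.92 CPM. With mouse 13 kept the Adap2 log2 fold change went from 0.48 to 0.00023, and that library held 82.5 CPM. Fam19a5, a secreted chemokine-like protein, was low in all livers and went from 0.775 ± 0.261 to 2.00 ± 0.305 CPM, with a log2 fold change of 1.37 ± 0.26. Adjusted p was 0.0193 for Adap2, 0.0407 for Fam19a5 and 0.044 for Ttc39b.

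The next smallest p-values among genes whose mean reached 5 CPM belonged to 5 higher and 5 lower genes, none called. Agxt2, an aminotransferase of mitochondria, was at 101, 88.4, 77.3 and 91.6 CPM against 109, 139, 118, 162 and 156 CPM, with a log2 fold change of 0.61 (adjusted p = 0.0565). Aox3, an aldehyde oxidase, was at 461, 406, 493 and 347 CPM against 845, 867, 929.8, 1103 and 922 CPM, with 1.13 (adjusted p = 0.0732). Cdh2, Arid5b and Pigr had log2 fold changes of 0.39, 0.86 and 0.58. On the lower side Mr1, which presents vitamin metabolites to T cells, had -1.14 (adjusted p = 0.0611), and Epb41l1, Ugt1a9 and Pdzk1ip1 had -0.89, -1.33 and -1.48. Pnpla3 was the remaining gene.

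In the called genes the KO Pio livers were at the edge of the 4 KO groups. The KO Pio mean was the highest or the lowest of the 4 KO group means in 18 of 18 called genes, against 57.6% of all genes tested. In 13 of the 18 the 4 KO Pio mice lay outside the range of all other 15 KO mice, which was so for 0.54% of all genes tested. The KO HFD-Pio range overlapped the KO control range in 16 of the 18, all but Lepr and Adap2. The share of all genes with such an overlap was not computed, so that count has nothing to be set beside. A gene was called through its KO Pio values, and in none of the 18 did these overlap KO HFD-Pio. The calling itself therefore favours counts above the shares over all genes, and they only describe the levels.

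Pparg itself was measured at 3.11, 6.92, 4.45 and 4.54 CPM in KO Pio mice and 5.52, 9.93, 7.05, 6.31 and 8.71 CPM in KO HFD-Pio mice. These gene totals hold transcripts of all liver cells and any remaining exons of the cut gene, so they do not measure the deletion. The groups overlapped, and the log2 fold change of 0.65 ± 0.29 was not called (adjusted p = 0.485), with p = 0.0476 in the exact permutation test. Among PPARγ target genes named by the study, Cav1, Cd36, Cidec, Fabp4 and Plin4 had log2 fold changes of 0.61, -0.12, -0.34, -0.46 and -0.12, none called. KO Pio mouse 12 was above the other 3 KO Pio mice in Cd36 (73.8 CPM against 27.3 to 32.5), Cidec and Fabp4, and without it Cd36 and Fabp4 had 0.33 and 0.36. Cfd and Mogat1 were below the count filter.

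Genes of fatty acid synthesis were lower on the HFD and genes of cholesterol synthesis higher as lists, while no member of either list was called. Msmo1, Mvk and Fdft1 passed the threshold by DESeq2, by limma with sample weights and with the compared groups only. Hsd17b7 did so by DESeq2 and limma, and Pnpla3 in 4 of 16 alternatives. By its own limma fit, the study reported cholesterol homeostasis genes enriched among those the HFD induced in KO mice given Pio. Of 22 tested genes of de novo lipogenesis and desaturation, 21 had a negative log2 fold change, with a median of -0.90 beside 0.00047 over all genes. At an unadjusted p under 0.05, 11 were lower and 0 higher, beside 4.91% and 4.54% of all genes. Scd1, the stearoyl-CoA desaturase, measured 52592, 33548, 36742 and 43635 CPM in KO Pio mice and 16472, 17159, 13330.4, 5652 and 5021 CPM in KO HFD-Pio mice. These groups did not overlap, and the log2 fold change was -1.85 ± 0.56 (adjusted p = 0.243). Fasn, fatty acid synthase, was at 3512, 2025, 1598 and 2393 CPM against 1291, 921, 1588, 582 and 645 CPM, where mouse 14 and mouse 18 nearly met, and its log2 fold change was -1.24 ± 0.58 (adjusted p = 0.524).

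Pnpla3, Scd1, Acaca and Fasn were the 4 of the 22 without overlap, all lower, beside 2.16% of all genes. Acaca, which makes malonyl-CoA, had a log2 fold change of -0.98 (adjusted p = 0.309), Elovl6, a fatty acid elongase, -1.18 and Acly, which makes cytosolic acetyl-CoA, -0.84. Srebf1, the gene of SREBP-1c, was at 394, 369, 434 and 431 CPM against 315, 332, 404, 292 and 244 CPM, with -0.36 (adjusted p = 0.774). Scd2 had -1.74, and -0.51 without KO Pio mouse 12, which held 80.1 CPM against 10.4 to 14.5 in the other KO Pio mice. These genes, other than Pnpla3 and Scd2, were chosen after their values were seen. The median of the list kept its sign in all 16 alternatives, from -1.09 to -0.58, and was -0.58 without mouse 11.

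Cholesterol synthesis and other SREBP-2 targets ran the other way. Of 26 tested genes, 25 had a positive log2 fold change, with a median of 0.50, and at an unadjusted p under 0.05, 9 were higher and 0 lower. The groups did not overlap in 8 of the 26, all higher in KO HFD-Pio, beside 2.07% of all genes. Msmo1, a sterol C4-methyl oxidase, measured 98.6, 129, 72.0 and 69.5 CPM in KO Pio mice and 323, 181, 224, 278 and 281 CPM in KO HFD-Pio mice. All KO HFD-Pio mice were above all KO Pio mice, with a log2 fold change of 1.48 ± 0.37 (adjusted p = 0.139). Mvk, mevalonate kinase, was at 19.6, 22.6, 14.9 and 18.7 CPM against 47.4, 28.5, 41.4, 45.1 and 40.5 CPM, with 1.10 ± 0.29 (adjusted p = 0.167).

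Hmgcs1, a synthase early in the cholesterol pathway, was at 395, 405, 147 and 233 CPM against 872, 495, 637, 723 and 752 CPM, with 1.24 ± 0.39 (adjusted p = 0.266). Fdft1, squalene synthase, was at 67.3, 76.0, 43.9 and 52.5 CPM against 146, 103, 125, 132 and 129 CPM, with 1.09 ± 0.29 (adjusted p = 0.187). Squalene epoxidase, Sqle, overlapped between the groups, at 115, 154, 58.1 and 62.0 CPM against 214, 109, 167, 143 and 193 CPM, with a log2 fold change of 0.76. Hsd17b7, an enzyme of sterol demethylation, had 0.93, and Srebf2, the gene of SREBP-2, 0.48. In these genes mice 14 and 15 were mostly the lowest of the KO Pio group and mouse 17 low among KO HFD-Pio. The median of the list was 0.40 to 0.66 over the 16 alternatives, positive in each.

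The promoters of Hmgcs1, Mvk and Msmo1, from the cholesterol list, and of Fasn, from the lipogenic list, are shown to set side by side genes whose levels ran in opposite directions. On GRCm38.p6 these RefSeq windows are chr13:119690101-119690400 (plus), chr5:114444019-114444318 (plus), chr8:64733529-64733828 (minus) and chr11:120824498-120824797 (minus). Capitals mark CCAAT on either strand and, in Hmgcs1, also TCACNCCAC, a form of the sterol element that SREBP binds.
Hmgcs1: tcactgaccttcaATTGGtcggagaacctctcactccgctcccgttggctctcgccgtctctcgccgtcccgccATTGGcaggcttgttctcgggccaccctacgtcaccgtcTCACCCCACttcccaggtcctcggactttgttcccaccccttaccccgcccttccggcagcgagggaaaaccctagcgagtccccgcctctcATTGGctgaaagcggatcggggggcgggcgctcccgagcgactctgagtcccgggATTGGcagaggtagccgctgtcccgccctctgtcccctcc
Mvk: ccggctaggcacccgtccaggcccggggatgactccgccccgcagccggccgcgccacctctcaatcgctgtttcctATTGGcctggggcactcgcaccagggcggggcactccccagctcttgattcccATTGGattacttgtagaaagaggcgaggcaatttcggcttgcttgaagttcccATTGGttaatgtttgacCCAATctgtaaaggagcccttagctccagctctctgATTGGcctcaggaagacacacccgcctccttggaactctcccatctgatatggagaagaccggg
Msmo1: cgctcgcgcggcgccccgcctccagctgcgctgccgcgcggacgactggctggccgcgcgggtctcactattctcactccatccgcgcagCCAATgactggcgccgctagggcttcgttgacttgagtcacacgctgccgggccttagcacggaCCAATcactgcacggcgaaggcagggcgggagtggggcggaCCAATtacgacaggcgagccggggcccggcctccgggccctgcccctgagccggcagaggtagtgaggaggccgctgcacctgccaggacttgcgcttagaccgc
Fasn: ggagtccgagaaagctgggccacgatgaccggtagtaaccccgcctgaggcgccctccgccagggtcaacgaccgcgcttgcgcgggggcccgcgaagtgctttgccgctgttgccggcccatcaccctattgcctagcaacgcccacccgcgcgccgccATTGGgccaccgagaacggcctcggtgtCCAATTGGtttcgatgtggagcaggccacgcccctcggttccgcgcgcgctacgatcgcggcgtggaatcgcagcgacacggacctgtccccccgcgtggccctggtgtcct
The windows held 4, 5, 3 and 3 CCAAT letters in this order, of which 2 in Fasn overlap as CCAATTGG, and that of Hmgcs1 held TCACNCCAC 1 time. Over the lists, 17 of 21 windows of the cholesterol genes (81.0%) and 14 of 26 of the lipogenic genes (53.8%) held CCAAT, beside 37.4% of all windows, and 1 of each held TCACNCCAC, beside 1.24%. A match describes letters only, since binding was not measured.

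**Figure D3:**
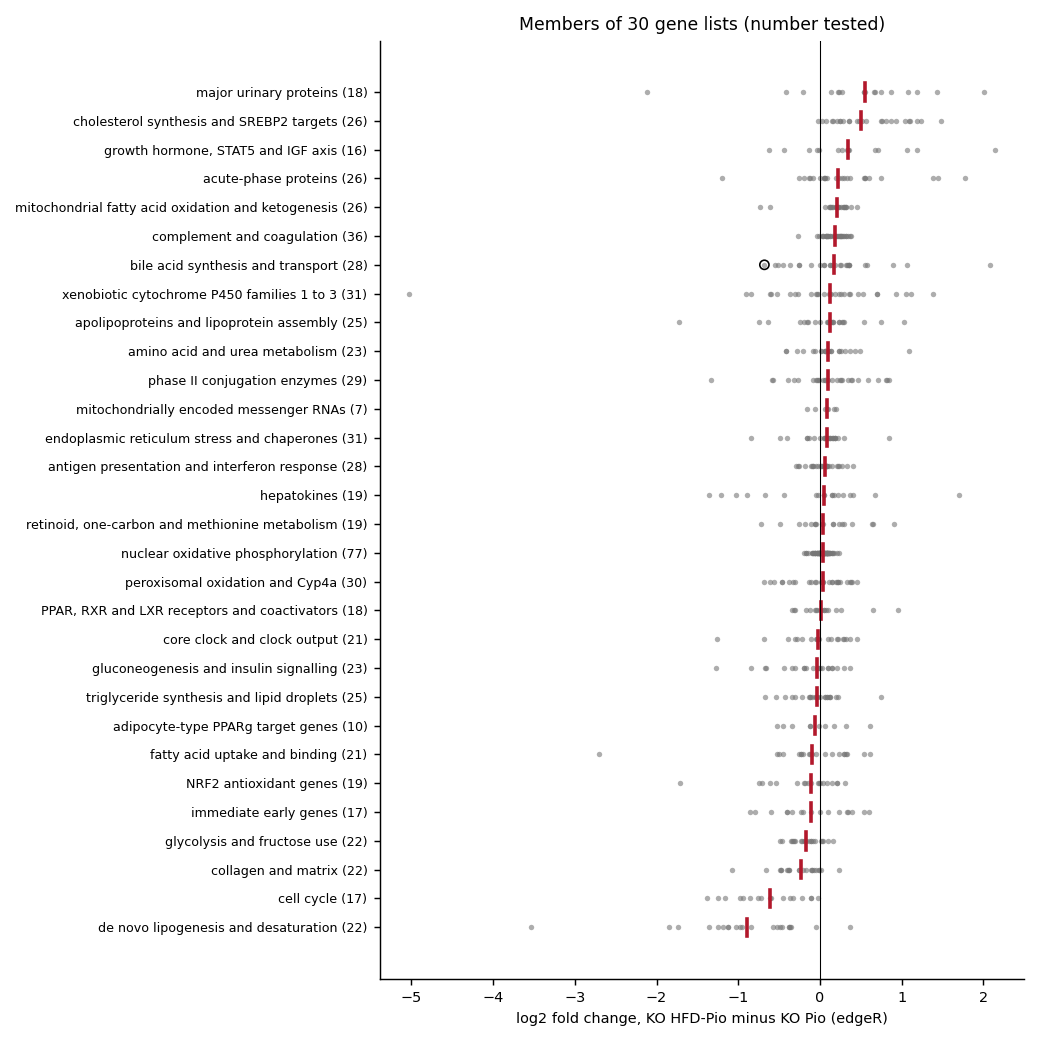
log2 fold change (KO HFD-Pio minus KO Pio) of each tested member of 30 lists; points are genes, red ticks are list medians, and open circles are called genes. The lipogenic list lies lowest, with a median of -0.90, and the median of the cholesterol list is 0.50.

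Bile acid and sterol handling held the only called member of any list, Abcg5. Of 28 tested genes, 7 were higher and 2 lower at an unadjusted p under 0.05, with a median of 0.17. Over all genes tested, 4.54% were higher and 4.91% lower at that p, which are the shares to set beside this list and those below. Cyp7a1, the rate-limiting enzyme of bile acid synthesis from cholesterol, measured 60.5, 84.8, 40.1 and 39.4 CPM in KO Pio mice and 236, 216, 265, 162 and 305 CPM in KO HFD-Pio mice. Every KO HFD-Pio mouse was well above every KO Pio mouse, and the log2 fold change was 2.08 ± 0.52, but it was not called (adjusted p = 0.14). Cyp7b1, of the alternative pathway, was at 247, 83.3, 217 and 146 CPM against 256, 276, 379, 476 and 418 CPM, with 1.06 (adjusted p = 0.3). Both were looked up after their values were seen.

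Among apolipoproteins and lipoprotein assembly, 6 of 25 were higher and 5 lower at an unadjusted p under 0.05, with a median of 0.12. Apoa4, an apolipoprotein of triglyceride-rich particles, was at 235, 443, 198 and 169 CPM against 96.8, 101, 78.1, 53.1 and 67.6 CPM, with a log2 fold change of -1.72 ± 0.46 (adjusted p = 0.187). Apoc2, the activator of lipoprotein lipase, was at 318, 339, 271 and 274 CPM against 214, 227, 179, 175 and 171 CPM, with -0.64 (adjusted p = 0.116). Ces3a, an esterase used in lipoprotein assembly, had 0.75 (adjusted p = 0.128). The groups did not overlap in any of these 3 genes. In the whole list of 25, 2 genes were higher and 4 lower without overlap, beside 2.07% and 2.16% of all genes.

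In the list of fatty acid uptake and binding, Fabp5, a fatty acid carrier, was at 127, 99.7, 29.2 and 114 CPM against 15.5, 10.8, 16.8, 5.99 and 21.4 CPM, without overlap and with a log2 fold change of -2.71 ± 0.67 (adjusted p = 0.138). The median of the 21 genes was -0.09. Triglyceride and lipid droplet genes had a median of -0.04 over 25, with 1 higher and 3 lower at an unadjusted p under 0.05. Abhd5, the coactivator of triglyceride lipase, had -0.67 (adjusted p = 0.0732) and Lipa, the lysosomal acid lipase, -0.31 (adjusted p = 0.198). Fatty acid oxidation in mitochondria had 24 of 26 positive changes with a median of 0.21, but 2 higher and 2 lower at an unadjusted p under 0.05. Peroxisomal oxidation and Cyp4a genes had a median of 0.03 over 30.

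Glycolysis and fructose use had 6 of 22 genes lower and 0 higher at an unadjusted p under 0.05, with a median of -0.17. Gpi1, glucose-6-phosphate isomerase, was at 119.8, 95.2, 114 and 122 CPM against 82.6, 85.5, 88.7, 71.8 and 72.9 CPM, with a log2 fold change of -0.49 (adjusted p = 0.139). Complement and coagulation had 33 of 36 positive changes, beside 6220 of all 12418 genes, and a median of 0.18. At that p, 8 were higher and 1 lower, beside 4.54% and 4.91% of all genes. The growth hormone, STAT5 and IGF list had 5 of 16 higher and 0 lower, with a median of 0.34, which was 0.17 without mouse 12 and 0.052 with mouse 13 kept. Its Igfals, the stabiliser of circulating IGF complexes, was at 61.7, 44.8, 87.8 and 56.7 CPM against 103, 91.0, 94.8, 118 and 104 CPM, with 0.70 (adjusted p = 0.116), and with mouse 13 kept the value was -1.29. Enho, the gene of the hepatokine adropin, averaged 10.6 ± 7.02 CPM against 34.5 ± 9.83 CPM, with a log2 fold change of 1.70 (adjusted p = 0.0992), and mouse 12 overlapped the HFD-Pio group.

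Phase II conjugation enzymes had 8 of 29 higher and 1 lower at an unadjusted p under 0.05, with a median of 0.10, and P450 families 1 to 3 had 5 of 31 higher and 1 lower, with a median of 0.13. Cyp2a4 had the lowest log2 fold change of all tested genes, -5.02 (adjusted p = 0.0732), with 43.4 CPM in KO Pio mouse 12 and 1.66 to 2.43 in the other 3, and its value without mouse 12 was -2.37. Major urinary proteins, near-identical genes whose shared reads were not counted, had a median of 0.55 over 18. Nuclear oxidative phosphorylation had a median of 0.03 over 77 genes, with 0 higher and 2 lower at that p. The 7 tested of 13 mitochondrially encoded mRNAs had a median of 0.08, with 0 either way.

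The medians of several lists moved with mouse 12. All 17 cell cycle genes had negative log2 fold changes, with a median of -0.61 and 1 lower at an unadjusted p under 0.05, and without mouse 12 the median was -0.27. Rrm2, the small subunit of ribonucleotide reductase, was at 7.28, 7.33, 8.52 and 9.00 CPM against 3.98, 3.47, 5.42, 3.82 and 5.55 CPM, with -0.85 (adjusted p = 0.128). Collagen and matrix genes had 20 of 22 negative changes with a median of -0.23, which became 0.10 without mouse 12. Without that mouse the median was 0.27 for major urinary proteins, 0.0086 for phase II enzymes, -0.024 for P450 families 1 to 3, 0.052 for fatty acid uptake and -0.023 for nuclear oxidative phosphorylation. Col1a1 was at 36.4 CPM in that mouse and 4.91 to 6.72 in the other 3 KO Pio mice.

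**Figure D4:**
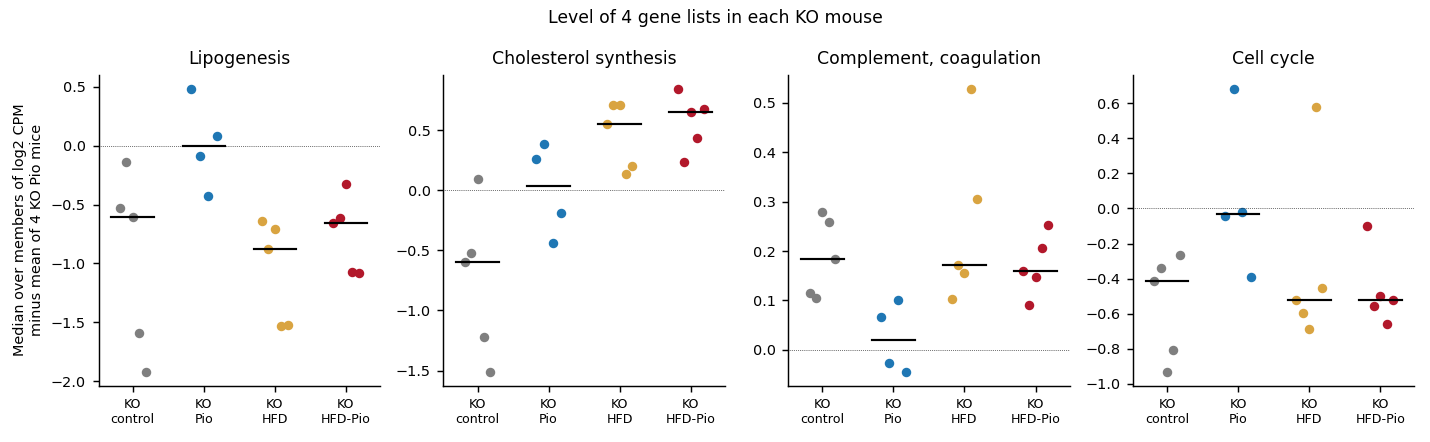
Median over the members of 4 lists of each KO mouse's log2 CPM minus the KO Pio mean, by group; points are mice, and lines are group medians. KO Pio mice lie from -0.42 to 0.49 on the lipogenic list and KO HFD-Pio mice from -1.08 to -0.33, while on the cholesterol list they lie from -0.44 to 0.38 and from 0.24 to 0.84.

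By list median, the mice of the groups overlapped at the edge of the lipogenic list. KO Pio mice were at 0.49, -0.09, -0.42 and 0.09 relative to their own mean on the log2 scale, and KO HFD-Pio mice at -0.66, -0.61, -0.33, -1.07 and -1.08. Mouse 14 of KO Pio was thus below mouse 18 of KO HFD-Pio. On the cholesterol list KO Pio mice were at 0.26, 0.38, -0.44 and -0.19 and KO HFD-Pio mice at 0.84, 0.24, 0.65, 0.44 and 0.68, with mouse 17 below mice 11 and 12.

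Markers of other cells were summed for each liver, and most ranges overlapped between the groups. Kupffer cell markers summed to 332 to 484 CPM in KO Pio and 322 to 410 CPM in KO HFD-Pio, endothelial markers to 284 to 338 and 293 to 342, and stellate cell markers to 238 to 323 and 272 to 285. T and NK cell markers did not overlap, at 5.29 to 6.90 and 7.22 to 9.25 CPM. The adipocyte list also did not, at 532 to 944 and 1224 to 2455 CPM, of which Car3, a gene that liver expresses too, made up 498 to 940 and 1219 to 2452. The pancreatic acinar list was at 6.87 to 11.8 and 15.0 to 26.4 CPM, nearly all of it Cela1, while the amylase gene Amy2a5 was at 0 in all 9 livers. Skeletal muscle markers summed to less than 1 CPM, and Ckm, Myh4 and Pvalb were at 0 in all 9. The part of these markers in the results was not tested.

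Without Pio, no gene of the 18 passed the threshold for the HFD in KO liver, and Lepr did when KO HFD mouse 9 was left out. That library had the lowest median Spearman correlation of the 19, 0.956. In KO HFD against KO control mice (5 against 5), 48 of the same 12418 genes were called (0.387%), 34 higher (0.274%) and 14 lower (0.113%), and 9 to 106 with 1 mouse left out. Of the 18 genes, 14 had the same sign there (15 without mouse 9), beside 52.1% of all genes tested. The difference between the HFD effects with and without Pio was called in 0 genes (0.0%) by edgeR, with 1120 (9.02%) at an unadjusted p under 0.05, 19 called by DESeq2 and 4 by limma with sample weights. Of the 18, 13 had an unadjusted p under 0.05 for that difference, which uses the same KO Pio and KO HFD-Pio mice that called them. Inhbc had 0.75 with and -0.15 without Pio, G6pdx -1.93 and 0.35, Itih5 -0.93 and 0.16 and Gstm4 -0.75 and 0.02. The G6pdx value without Pio was -0.12 when mouse 9 was left out, so its sign turned on that mouse. Lepr had -2.40 and -1.66 (-2.21 without mouse 9), and Ces1b 0.90 and 0.34.

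The medians of the fat and sterol synthesis lists had the same sign without Pio as with it. The lipogenic median was -0.41 there, with 0 called, beside -0.90 under Pio, and it was -0.59 without KO control mouse 5 and -0.16 without KO control mouse 2. Relative to the KO Pio mean, KO HFD mice lay from -1.53 to -0.64 on the lipogenic list, inside the KO control range of -1.92 to -0.14. The cholesterol median was 1.17, with 11 of 26 called higher, beside 0.50 and 0 called under Pio. KO control mice lay from -1.51 to 0.09 on the cholesterol list relative to the KO Pio mean, and KO HFD mice from 0.14 to 0.71. Hmgcs1 had a log2 fold change of 2.30 without and 1.24 with Pio, and Msmo1 2.13 and 1.48. On the cholesterol list, 0 genes had a higher and 3 a lower HFD effect under Pio at an unadjusted p under 0.05, beside 4.05% and 4.97% of all genes, and none was called. The median of the cell cycle list was 0.30 without Pio and 0.053 without mouse 9, which was at 0.58 on that list while the other 4 KO HFD mice lay from -0.69 to -0.45, inside the KO control range of -0.93 to -0.27.

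**Figure D5:**
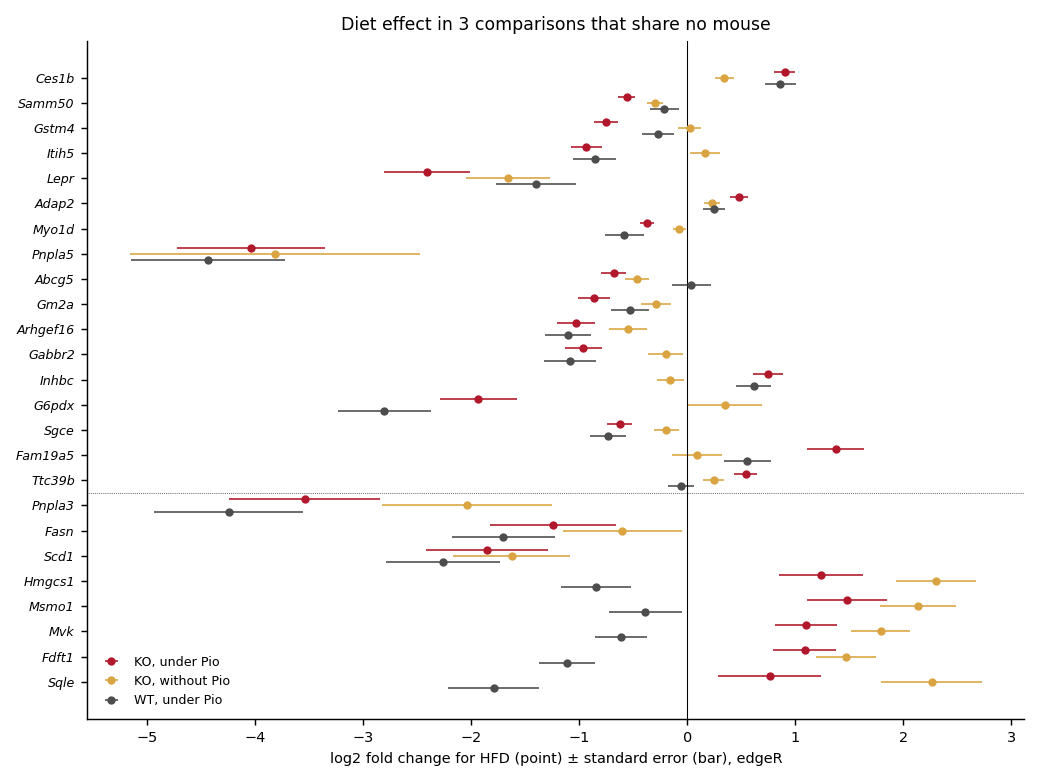
log2 fold change of the HFD ± SE for 17 of the 18 called genes, Pnpla3, 2 lipogenic genes and 5 cholesterol genes in KO mice under Pio, KO mice without Pio and WT mice under Pio. The cholesterol genes lie above 0 in both KO comparisons and below 0 in WT, where Msmo1 is at -0.39.

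In WT mice under Pio (5 against 5), 1119 of 12895 genes were called (8.68%), 454 higher (3.52%) and 665 lower (5.16%). Leaving out 1 mouse gave from 283 calls (mouse 845, WT Pio, out) to 2612 (mouse 841 of that group out). Of the 18 genes, 16 had the same sign in WT, beside 56.2% of all genes, and 11 were called there. Ces1b had 0.86 in WT and 0.90 in KO, Pnpla5 -4.43 and -4.04, G6pdx -2.80 and -1.93, and Lepr -1.40 and -2.40. Abcg5 had 0.04 in WT against -0.68 in KO, with an unadjusted p of 0.00962 for the difference, and Ttc39b -0.06 against 0.54, with 0.0016. Fam19a5 and Gstm4 were the other 2 of the 18 with an unadjusted p under 0.05 for the difference between genotypes, and none of the 18 was called for it.

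The lipogenic list had the same direction in both genotypes, with a median of -1.24 in WT and 13 of 22 called lower. The cholesterol list did not: its WT median was -0.84, with 10 of 26 called lower. The difference of the HFD effects, KO minus WT, was called in 1 of 12895 genes (0.00775%), Fdft1, at 2.20 on the log2 scale (adjusted p = 0.0232), from 1.09 in KO and -1.11 in WT. With 1 mouse left out, 0 to 244 genes were called for it. Of the 26 genes of the list, 20 had an unadjusted p under 0.05 for a higher effect in KO, beside 5.75% of all genes, and the median difference was 1.63. Cyp7a1 had 2.08 in KO and -0.83 in WT, a difference of 2.91 (adjusted p = 0.0517). Of 13 mitochondrially encoded mRNAs, the 7 tested had a median of -1.17 in WT and of 0.08 in KO. In WT 5 of these were called lower, beside 5.16% of all genes. The remaining mRNAs were below the count filter, while mt-Nd5 was at 5940 to 10462 CPM in the KO Pio mice. The reason was not tested, so the medians describe the 7 only and give no level for the rest. The WT and KO counts came from separate tables, so genotype and any step that differed between the tables cannot be told apart.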

How the data were processed

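Poly-A RNA sequencing was done on whole liver of 40 mice. The authors aligned reads to GRCm38 with STAR 2.0.4b and deposited raw counts per gene from Subread featureCounts 1.4.5, in 1 table for each genotype. Only reads with a unique and unambiguous alignment were counted. The strand setting is not given in the sources used here. Repeated lines (598 in the KO table, 0 of them with differing values) and 355 rRNA genes were removed. Depth was 21542958 to 28334251 counts in the KO libraries. The filter kept genes that reached 1 CPM in 5 or more mice, and 27821 genes were below it. TMM-scaled counts of 19 KO mice (4 groups, without mouse 13) were fitted with edgeR 4.0.16 (R 4.3.3) by the quasi-likelihood test, with Benjamini-Hochberg adjustment over all genes tested. WT effects and differences between genotypes came from 1 fit of 39 mice. The common dispersion was 0.0359 in the KO fit, and replicate libraries differed beyond counting noise. On simulated counts with 12418 genes, the KO comparison recovered 95.92% of genes changed by a log2 of 1, with 9 false calls. Those counts were drawn from each gene's fitted dispersion, without libraries that stand apart, and only genes of at least 5 CPM were changed. The share therefore does not measure how many real changes were missed, and a gene not called may still have changed.

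Alternatives were DESeq2 1.42.0, limma 3.58.1 with sample weights, DESeq2 size factors, no filter, mouse 13 kept, 39 mice in 1 fit, the compared groups only, and each mouse left out. Named were Pparg, called genes whose mean reached 5 CPM, the 5 smallest p-values in each direction beyond the calls, up to 4 called or otherwise 2 members of smallest p per list, called differences, and 7 genes the study names; the text says where a gene was chosen after its values were seen. The members and the 30 pathway and 12 marker lists were chosen with earlier results of these data known. Gene positions are from GENCODE M21 and promoters from RefSeq, of which 14 of 18 called genes matched by symbol. Of the called genes, 1 is in the counts but not reported here by name, and some members of the lists likewise.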

Additional observations from a re-analysis of the deposited data

Results flagged for a closer look

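In 21 of 214 groups of 4 or 5 mice examined (9.81%), 1 mouse stood apart from the rest by Dixon's criterion, which chance meets in about 1 of 20 groups. KO Pio mouse 12 was high in Cd36 (73.8 CPM, others 27.3 to 32.5), Cidec (7.03, others 3.08 to 3.32), Col1a1 (36.4, others 4.91 to 6.72), Cyp2a4 (43.4, others 1.66 to 2.43), Fabp4 (37.1, others 6.84 to 11.3), Gstm3 (270, others 46.5 to 69.6) and Scd2 (80.1, others 10.4 to 14.5). It was low in the mitochondrial mRNAs mt-Nd5 (5940 CPM, others 9866 to 10462) and mt-Nd6 (1620 CPM, others 2566 to 2748). KO Pio mouse 14 was low in Gstm4 (55.8 CPM, others 66.9 to 68.0) and Pnpla5 (1.34, others 4.99 to 5.66) and high in Inhbc (72.5, others 47.3 to 47.5).

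KO HFD-Pio mouse 18 was low in Ces1b (45.6 CPM, others 60.8 to 66.4), Cth (205, others 350 to 409), Fam19a5 (1.47, others 2.05 to 2.20) and Ttc39b (57.2, others 65.4 to 68.8), and high in Hspb1 (6.51, others 4.26 to 4.55). Mouse 16 was high in Gm2a (198 CPM, others 115 to 139) and Scd2 (13.5, others 7.03 to 8.86), mouse 17 in Hamp2 (84.9, others 25.8 to 41.7) and mouse 20 in Cidec (5.43, others 2.52 to 3.02).

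The HFD effect under Pio on Fdft1, squalene synthase, differed between genotypes by a log2 of 2.20, KO minus WT (adjusted p = 0.0232, edgeR's quasi-likelihood test).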

How the results depend on the processing

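The 18 calls of the HFD effect under Pio in KO mice became 139 with DESeq2, 99 with limma and 0 with mouse 13 kept. With a mouse left out they became 1 to 36, with the fewest without KO Pio mouse 11 and the most without mouse 14. They became 23 with the compared groups only and 12 with 39 mice in 1 fit, of which 9 and 7 were among the 18. Without Pio, 48 calls became 266 with DESeq2, 328 with limma, 24 without a filter, 0 with mouse 13 kept, 0 with the compared groups only and 9 to 106 with a mouse left out. The 0 calls for the difference with and without Pio became 19 with DESeq2, 4 with limma and 0 to 1. In WT, 1119 became 2927 with limma, 564 without a filter, 176 with mouse 13 kept, 479 with the compared groups only and 283 to 2612. The 1 call between genotypes became 66 with DESeq2, 982 with limma, 0 without a filter, 2 with mouse 13 kept, 49 with the compared groups only and 0 to 244. The list medians stayed within 0.40 to 0.66 (cholesterol) and -1.09 to -0.58 (lipogenesis).

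Signs turned with mouse 13 kept for Ndufa12 (0.10), Igfals (-1.29), Rxra (-0.037), Cd36 (0.11), Plin4 (0.017), Fam19a5 (-0.031) and Srebf2 (-0.26), and with limma for Cd36 (0.092) and Fabp4 (0.00041). Fam19a5 was a called gene. With a mouse left out, Nr4a1 ranged from -1.32 to 0.44 (without mouse 11), and Col1a1 from -1.35 to 0.15, Cd36 from -0.31 to 0.33, Cidec from -0.59 to 0.037, Fabp4 from -0.77 to 0.36 and Plin4 from -0.35 to 0.065, each highest without mouse 12. Among named genes, 1466 values kept direction and side of the threshold, 85 newly passed it and 145 no longer did; the cause was not tested. No paired analysis was possible because mouse numbers are not shared between groups. With 4 against 5 mice a permutation p cannot fall below 0.0159.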

Other observations

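Other named genes were measured without a call in KO HFD-Pio against KO Pio livers. In amino acid metabolism, 4 of 23 genes were higher and 0 lower at an unadjusted p under 0.05, beside 4.54% and 4.91% of all genes. The median log2 fold change was 0.10. Ornithine aminotransferase, Oat, was at 504, 121, 439 and 416 CPM in KO Pio mice and at 613, 1016, 489, 974 and 835 CPM in KO HFD-Pio mice, with mouse 12 lowest and mouse 18 overlapping KO Pio. Its log2 fold change was 1.09 and its adjusted p 0.200 by edgeR's quasi-likelihood test. Angptl8, a hepatic inhibitor of lipoprotein lipase activity, overlapped between the groups, with a log2 fold change of -1.36 (adjusted p = 0.269). Igf1, the growth factor released by liver under growth hormone, was at 504 to 678 CPM in KO Pio and 672 to 775 CPM in KO HFD-Pio, with 0.35 (adjusted p = 0.198). Mup1 had 2.01 (adjusted p = 0.299), and reads that also match other urinary protein genes were not counted.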
